A study of Rattus norvegicus with 12 samples.

Results

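Sarcomeric myosin heavy chains are the motor proteins of the thick filament of striated muscle, and 8 of their genes were followed here through the wounds of diabetic rats. The 8 genes are Myh4, Myh1 and Myh2 (fast), Myh7 and Myh7b (slow), Myh6 (alpha-cardiac) and Myh3 and Myh8 (developmental). They were picked by symbol, and each had a row in the table of read counts (25620 genes) and in the table of FPKM (25524 genes), where FPKM is fragments scaled to transcript length and to library depth. Wound tissue, labelled skin, came from male SD rats made diabetic with streptozotocin and given a full-thickness punch wound on the back. Wounds received saline (control), d-SMG (dried mucus gel of the snail *A. fulica*), s-GAG (the glycosaminoglycan of that gel, labelled GAG) or Alg (a commercial alginate dressing), and were collected on days 3, 7 and 14. All groups share the diabetes and the wound, no unwounded skin was analysed here, and the labels give neither an age nor the number of animals behind a library. There was 1 library for each of the 4 treatments on each of the 3 days, 12 in all, so a treated library on a given day has no replicate.

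A muscle fibre is typed by the heavy chain it uses: Myh4 encodes the 2B chain of the fastest glycolytic fibres, Myh1 the 2X chain and Myh2 the 2A chain of oxidative fast fibres, while Myh7 encodes the slow type 1 chain, which is also the beta chain of the heart. Myh7b is an ancient slow-tonic chain whose transcript in mammalian muscle is often not translated, and Myh6 is the alpha chain of the heart. Myh3 (embryonic) and Myh8 (neonatal) are used in developing muscle and again when injured fibres regenerate. Rat skin carries a thin sheet of fast striated muscle below the fat, the panniculus carnosus, which a full-thickness wound cuts.

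The libraries held 13748887 to 38302461 counted reads. In 2 libraries other genes stood apart. In d-SMG day 3 the summed FPKM of 12 keratinocyte markers was 17.31, against 2377 to 15330 in the other libraries, and Krt14 (the basal keratin) was at 9.99 FPKM against 1528 to 11739. In s-GAG day 14 the summed FPKM of 3 very long muscle transcripts (Ttn, Neb and Xirp2, chosen after their values were seen) was 0.0354% of that of 4 short ones (Acta1, Ckm, Tnnc2 and Tcap), against 0.603% to 4.31% elsewhere. The part of either feature in the myosin values was not tested. The heavy chain transcripts are close in length, 6574 to 8339 bases as back-calculated from reads and FPKM. They are also close in sequence, and how reads that fit more than 1 gene were handled is not given in the sources used here, so the split between neighbours on chromosome 10 (Myh3, Myh2, Myh1, Myh4 and Myh8, in that order) and on chromosome 15 (Myh6 and Myh7) is uncertain. Myh7 and Myh7b also overlap neighbouring genes in the RefSeq annotation (Gss and Trpc4ap at Myh7b), and whether the counting used strand is not given. In bulk tissue, fewer muscle fibres and less RNA per fibre cannot be told apart.

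The promoters of the 3 fast genes are shown because Myh4 and Myh1 moved together over the libraries (r = 0.862 over 12 libraries, a description), and that of Myh7, the slow chain, for comparison (r = 0.617 with Myh4). Each is 250 bases before to 50 after the gene start (RefSeq, build GRCr8, where all 8 members were found), printed 5′ to 3′ in the direction of the gene. Capitals mark TATAAA on the gene's strand and a 20-base stretch that Myh4, Myh1 and Myh2 share.
Myh4, chr10:52421898-52422197, plus strand: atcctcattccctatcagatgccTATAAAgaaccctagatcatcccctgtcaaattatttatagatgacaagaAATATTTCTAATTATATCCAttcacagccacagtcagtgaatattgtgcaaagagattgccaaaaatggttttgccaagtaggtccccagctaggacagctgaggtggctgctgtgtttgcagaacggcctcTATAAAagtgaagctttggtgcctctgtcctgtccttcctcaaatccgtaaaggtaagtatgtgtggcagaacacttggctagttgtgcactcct
Myh1, chr10:52384662-52384961, plus strand: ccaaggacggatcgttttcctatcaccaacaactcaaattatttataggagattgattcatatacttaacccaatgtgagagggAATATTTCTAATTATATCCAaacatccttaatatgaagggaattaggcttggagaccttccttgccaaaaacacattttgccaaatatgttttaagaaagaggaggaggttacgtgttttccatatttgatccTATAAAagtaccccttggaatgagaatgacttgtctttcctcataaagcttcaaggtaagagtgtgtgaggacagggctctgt
Myh2, chr10:52355489-52355788, plus strand: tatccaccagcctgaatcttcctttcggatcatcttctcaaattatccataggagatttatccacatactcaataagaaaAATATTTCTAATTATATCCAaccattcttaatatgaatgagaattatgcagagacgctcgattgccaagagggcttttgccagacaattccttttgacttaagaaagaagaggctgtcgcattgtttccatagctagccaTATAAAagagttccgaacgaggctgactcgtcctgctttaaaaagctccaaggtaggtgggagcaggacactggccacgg
Myh7, chr15:32438145-32438444, minus strand: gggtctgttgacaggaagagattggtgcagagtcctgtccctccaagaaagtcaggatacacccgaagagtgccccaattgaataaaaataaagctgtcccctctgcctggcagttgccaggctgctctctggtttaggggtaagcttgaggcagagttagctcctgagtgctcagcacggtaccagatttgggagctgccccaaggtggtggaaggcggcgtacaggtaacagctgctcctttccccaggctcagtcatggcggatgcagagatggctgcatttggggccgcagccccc
The shared stretch lay 177, 166 and 170 bases before the start of Myh4, Myh1 and Myh2. It was picked as the longest stretch common to these 3 windows, so its presence in them was fixed by that choice. On either strand it was in 5 of 33469 promoter windows (0.0149%). These belong to those 3 genes and LOC102555216, a long non-coding RNA gene that overlaps Myh1. TATAAA, searched on both strands, was in 4 of 8 member windows (Myh4, Myh1, Myh2 and Myh3) and in 14.2% of all windows. The E-box CANNTG, the letters bound by MyoD-family factors, was in 5 of 8 and in 72.1% of all, CATTCC was in 3 of 8 and 14.2%, the CArG box was in 1 of 8 and 1.64%, and the MEF2 box was in 0 of 8 and 0.565%. The MEF2 box was searched only in a narrow form that begins with C and ends with G, and wider forms were not counted. The Myh4 and Myh1 windows each hold a stretch that differs from this form only in its first letter, T in place of C. No match therefore says only that the letters searched are not in this window, and not that the window lacks a MEF2 site.

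Fast isoforms dominated every library. Myh4 was the most abundant member in 12 of 12 libraries and Myh1 the second in 12 of 12. On day 3, Myh4 was at 6569.7 FPKM in control, 11839 in d-SMG, 1881 in s-GAG and 3044 in Alg. On day 7 it was at 4959 in control, 468 in d-SMG, 2896 in s-GAG and 12354 in Alg. On day 14 the levels were 4009 FPKM in control, 399 in d-SMG, 4937 in s-GAG and 1054 in Alg. Control stayed within a narrow band, and the d-SMG libraries held both a very high level, on day 3, and the lowest levels, on days 7 and 14.

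Myh1, the 2X chain, had both its highest and its lowest level in d-SMG libraries. Its FPKM on day 3 was 895 in control, 2939 in d-SMG, 1472 in s-GAG and 452 in Alg. On day 7 Myh1 was at 866 FPKM in control, 86.8 in d-SMG, 1356 in s-GAG and 1586 in Alg. By day 14 Myh1 stood at 1361, 168, 441 and 157 FPKM in the same order.

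Myh2 was far less abundant and its control levels were not the highest on any day. On day 3 Myh2 was at 27.4 FPKM in control, 165 in d-SMG, 377 in s-GAG and 71.0 in Alg. On day 7 it was at 76.3 FPKM in control, 10.3 in d-SMG, 112.0 in s-GAG and 325 in Alg. On day 14 it was at 68.9 FPKM in control, 25.0 in d-SMG, 196 in s-GAG and 5.45 in Alg. s-GAG libraries lay above the control of the same day on all 3 days. The highest level of Myh2 was 69.3 times the lowest, against 31.0 for Myh4 and 33.8 for Myh1.

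**Figure D1:**
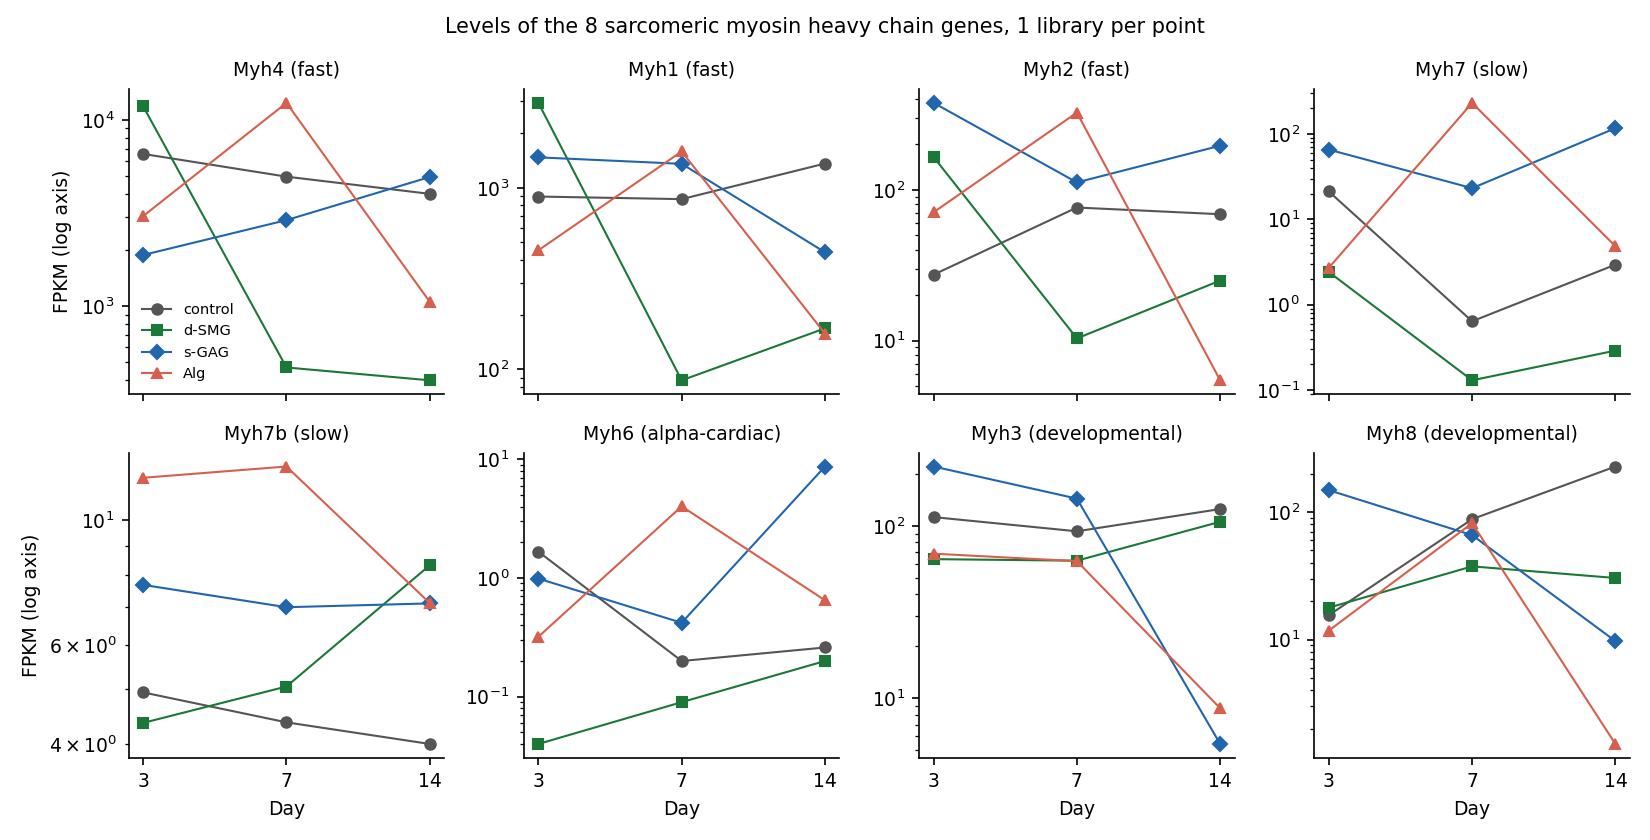
FPKM on a log axis against day (3, 7 and 14) for each of the 8 genes, 1 library per point, with 1 colour and symbol per treatment and lines joining libraries of a treatment (different wounds, no error bars). Myh4 spans 399 to 12354 FPKM, Myh7 spans 0.13 to 233 FPKM, and Myh7b stays between 4 and 12.4 FPKM.

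Myh7, the slow chain, varied most. On day 3 Myh7 was at 21.3 FPKM in control, 2.42 in d-SMG, 65.9 in s-GAG and 2.71 in Alg. On day 7 it was at 0.64 FPKM in control, 0.13 in d-SMG, 23.3 in s-GAG and 233 in Alg. On day 14 it was at 2.95 FPKM in control, 0.29 in d-SMG, 118 in s-GAG and 4.85 in Alg. s-GAG libraries were above control and d-SMG libraries below it on each day, while Alg was below it on day 3 and above it on days 7 and 14. The d-SMG day 7 value rests on 15 reads and the control day 7 value on 63.

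Myh7b varied little. Its FPKM on day 3 was 4.94 in control, 4.36 in d-SMG, 7.67 in s-GAG and 11.9 in Alg. On day 7 Myh7b was at 4.37 FPKM in control, 5.06 in d-SMG, 7.00 in s-GAG and 12.4 in Alg. On day 14 its levels were 4 FPKM in control, 8.31 in d-SMG, 7.11 in s-GAG and 7.12 in Alg. The 3 s-GAG and the 3 Alg libraries did not overlap the 3 control libraries. In s-GAG, 3 of 8 members did not overlap control (Myh2, Myh7 and Myh7b, all higher), against 15.1% of all genes tested, in Alg 2 of 8 (Myh7b higher and Myh3 lower), against 8.68%, and in d-SMG 0 of 8, against 1.96%. The highest level was 3.11 times the lowest, against 1790 times for Myh7.

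Myh6 was near the bottom throughout, at 4 to 1112 reads. On day 3 it was at 1.67 FPKM in control, 0.04 in d-SMG, 0.99 in s-GAG and 0.32 in Alg. On day 7 Myh6 was at 0.20 FPKM in control, 0.09 in d-SMG, 0.42 in s-GAG and 4.02 in Alg. On day 14 it was at 0.26 FPKM in control, 0.20 in d-SMG, 8.71 in s-GAG and 0.65 in Alg. Its 2 highest libraries, s-GAG day 14 and Alg day 7, were also the 2 highest of Myh7. Of cardiac markers, Gata4 was at 0 in all 12 libraries and Tbx5 at no more than 0.02 FPKM. Mybpc3 was at no more than 0.16, Myl7 0.30 and Nppa 0.64 FPKM. Ryr2 was at no more than 0.12, Tnni3 0.68 and Hand2 0.75 FPKM. Nppb was higher, at 0.16 to 18.19 FPKM, with its highest level in d-SMG day 14. Tnnt2, which regenerating skeletal muscle also uses, was at 111 to 777 FPKM, and the summed FPKM of 10 cardiac markers, nearly all of it Tnnt2, was 122.4 to 777.6. Muscle spindles, the stretch sensors whose fibres use several of these chains, had 7 markers whose summed FPKM was 2.63 to 16.27.

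The developmental pair was detected in every library. Myh3 on day 3 was at 112 FPKM in control, 64.0 in d-SMG, 221 in s-GAG and 68.8 in Alg. On day 7 it was at 92.9 FPKM in control, 62.7 in d-SMG, 144 in s-GAG and 62.3 in Alg. By day 14 Myh3 was at 125 FPKM in control, 106 in d-SMG, 5.40 in s-GAG and 8.71 in Alg. Apart from the low s-GAG and Alg libraries of day 14, Myh3 lay between 62.3 and 221 FPKM, d-SMG days 7 and 14 included, where Myh4 was at its lowest.

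Myh8 on day 3 was at 15.6 FPKM in control, 17.8 in d-SMG, 148 in s-GAG and 11.8 in Alg. On day 7 it was at 88.0 FPKM in control, 37.5 in d-SMG, 65.9 in s-GAG and 81.9 in Alg. By day 14 Myh8 was at 228 FPKM in control, 30.4 in d-SMG, 9.73 in s-GAG and 1.52 in Alg. The control libraries were lowest on day 3 and highest on day 14. Myh3 was above Myh8 in 9 of 12 libraries, so their order was not fixed.

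As a share of the summed FPKM of the 8 genes, Myh4 made up a median of 80.1%, from 45.1% in s-GAG day 3 to 86.3% in s-GAG day 14, and Myh1 a median of 13.6%, from 7.71% to 35.3%. The 3 fast genes together made up 80.4% to 99.4% and the 2 slow genes 0.0451% to 2.18%. The developmental share had a median of 2.59%. It was 18.5% in d-SMG day 14 and 14.9% in d-SMG day 7, above every other library, and 0.544% in d-SMG day 3. The d-SMG libraries of days 7 and 14 also had the lowest summed FPKM of the 8 genes, 671 and 737, against 15032 in d-SMG day 3, so their high developmental share went with low Myh4 and not with high Myh3. s-GAG day 3 differed otherwise, with 9.04% Myh2, 1.58% Myh7 and 8.85% developmental chains.

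**Figure D2:**
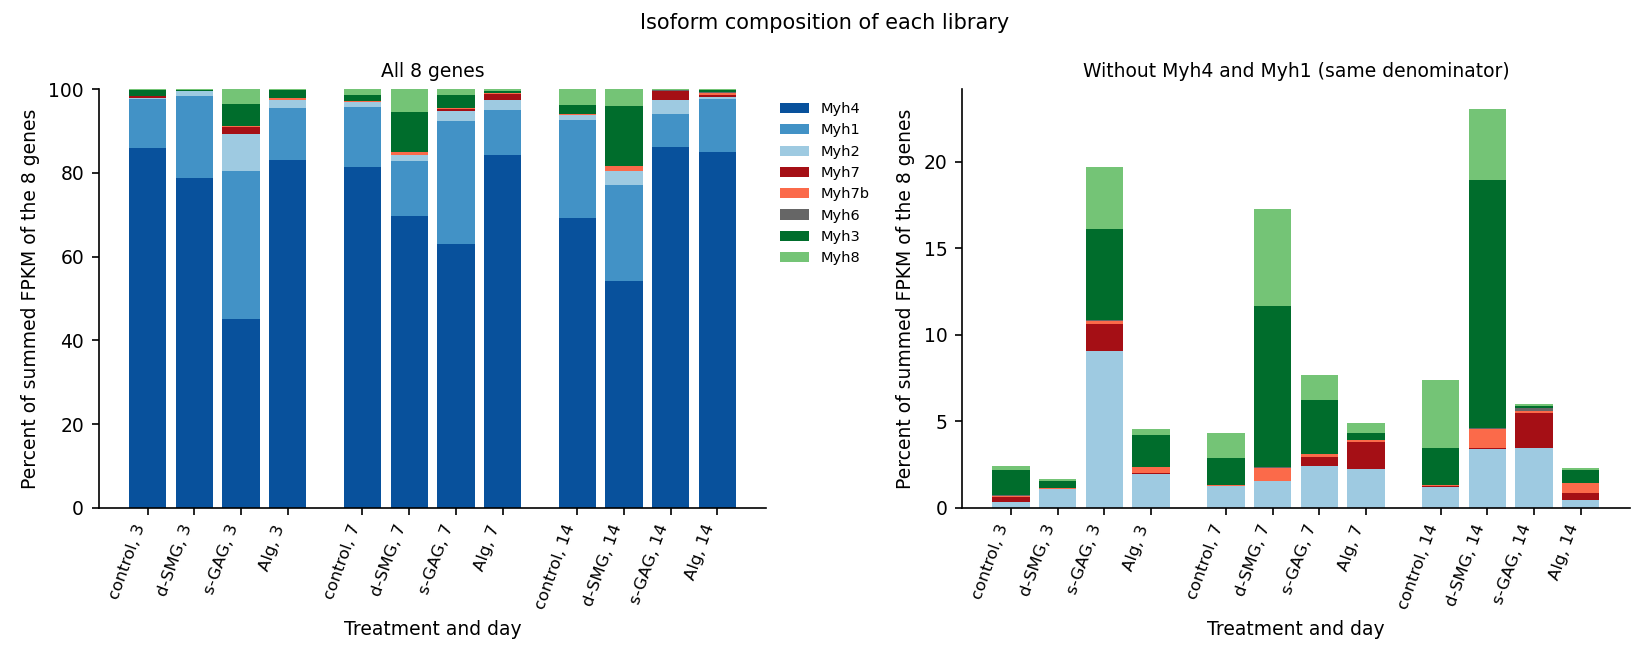
Stacked bars of the percent of summed FPKM of the 8 genes in each library, all genes on the left and all but Myh4 and Myh1 on the right over the same denominator. The developmental share (greens) is largest in d-SMG day 14 (18.5%) and d-SMG day 7 (14.9%), and Myh2 is largest in s-GAG day 3 (9.04%).

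With the 3 days taken as replicates of a treatment, no member passed the test for any treatment. In edgeR's quasi-likelihood fit with day as a term, 0 of 8 members were called at a false discovery rate of 0.05 for d-SMG, s-GAG or Alg against control, or for any difference among the 4 treatments. The share of all 16110 genes called was 0% in each of these 4 comparisons. In edgeR, 218, 1492, 502 and 531 genes had an unadjusted p under 0.05. DESeq2 called 9, 288, 88 and 105 genes, with 0 members among those called. Unadjusted in edgeR, Myh7b was the only member under 0.05, in Alg and for any difference among the 4 treatments. In Alg it had a log2 fold change of 1.22 ± 0.36 (SE) and an adjusted p of 1, and was higher than control on 3 of 3 days. Unadjusted in DESeq2, the members under 0.05 were Myh6 in d-SMG, Myh7 and Myh7b in s-GAG and Myh7, Myh7b and Myh8 in Alg. For any difference they were Myh7, Myh7b and Myh6.
Myh7 had fitted log2 fold changes of -2.89 ± 1.90 in d-SMG, 4.43 ± 2.18 in s-GAG and 5.06 ± 3.07 in Alg (SE), with edgeR adjusted p of 1, 0.563 and 1. Each moved with 1 library: the Alg value was -0.92 without Alg day 7, the s-GAG value 1.79 without s-GAG day 14, and the d-SMG value -1.13 without control day 3 and -5.07 without d-SMG day 3. Myh6 had -3.29 ± 1.73, 1.74 ± 1.76 and 1.13 ± 1.87, and its values were -0.65 in d-SMG without control day 3, -0.22 in s-GAG without s-GAG day 14 and -1.51 in Alg without Alg day 7. The fold changes of Myh4 were -0.57, -0.07 and 0.06, those of Myh1 -0.66, -0.37 and -0.99, and those of Myh2 0.02, 1.95 and 0.83, in the order d-SMG, s-GAG and Alg. Those of Myh3 were -0.49, -0.42 and -1.67, and those of Myh8 -2.16, -0.74 and -2.42. Many of these signs turned under at least 1 processing alternative.

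Between days, 0 of 8 members were called for day 7 against day 3, day 14 against day 3 or day 14 against day 7, and 0% of genes were called in each. At an unadjusted edgeR p under 0.05 there were 292, 798 and 502 genes and 0 members. DESeq2 called 0, 39 and 7 genes and 0 members, though Myh1 was under 0.05 there unadjusted for day 14 against day 3. The log2 fold changes of day 14 against day 3 were -1.49 ± 1.62 for Myh4, -1.88 ± 1.31 for Myh1, -1.21 ± 1.34 for Myh2, -1.95 ± 1.88 for Myh7 and -1.27 ± 0.91 for Myh3 (SE). They were -0.02 ± 0.31 for Myh7b, -0.11 ± 1.44 for Myh8 and 1.13 ± 1.62 for Myh6.

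On single days each comparison sets 1 library against 1, so no p is given. The values are log2 fold changes after TMM scaling, called past 4-fold, and their 95% intervals (exact, conditional on the reads of both libraries) cover counting error only. Scaled instead to 22 pan-muscle genes, which asks how a member moved relative to muscle content, the median of all genes moved by -1.62 to 3.22 and 19 of the 72 member values changed sign.

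In d-SMG, fast chains were above control on day 3 and below it on days 7 and 14, though relative to pan-muscle genes Myh4 on day 3 went from 1.31 to -0.34 and Myh2 on day 14 from -1.62 to 1.62. On day 3, 4 of 8 members were past 4-fold, against 9.2% of all genes: Myh1 (2.18) and Myh2 (3.06) higher, Myh7 (-2.67) and Myh6 (-4.95, from 4 reads) lower. On day 7, 4 of 8 were lower past 4-fold against 3.95% of genes in either direction, Myh4 (-3.67), Myh1 (-3.58), Myh2 (-3.15) and Myh7 (-2.53, interval -3.49 to -1.74). On day 14, 4 of 8 were lower against 8.54%, Myh4 (-3.48), Myh1 (-3.17), Myh7 (-3.49) and Myh8 (-3.06). Relative to pan-muscle genes, Myh4 was at -0.52 on day 7 and -0.24 on day 14, and Myh2 and Myh7 on day 7 (0.0053 and 0.58) and Myh1 and Myh8 on day 14 (0.07 and 0.18) changed sign. Myh3 was within 2-fold of control on each day (-0.35, -0.83 and -0.40) and was at -2, 2.32 and 2.84 relative to pan-muscle genes.

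In s-GAG, Myh7, Myh2 and Myh7b were above control on all 3 days. On day 3, 2 of 8 members were higher past 4-fold against 6.9% of genes, Myh2 (3.63) and Myh8 (3.10). On day 7, 1 of 8 was higher against 9.24%, Myh7 (5.14, interval 4.79 to 5.53). On day 14, 4 of 8 were past 4-fold against 25.1%, the highest background of the 9 comparisons: Myh7 (5.67) and Myh6 (5.39) higher, Myh3 (-4.18) and Myh8 (-4.20) lower. Relative to pan-muscle genes these 3 were also higher on each day (Myh7 2.51, 5.22 and 6.56). Leaving out d-SMG day 3 and s-GAG day 14 takes the day 14 calls away with their library, so 3 of the s-GAG calls are left, all higher.

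In Alg, the direction turned between days. On day 3, 2 of 8 members were lower past 4-fold against 5.09% of genes, Myh7 (-3.06) and Myh6 (-2.47). On day 7, 3 of 8 were higher against 5.58%, Myh7 (8.56, from 63 to 24462 reads), Myh6 (4.34) and Myh2 (2.15). On day 14, 5 of 8 were lower against 7.35%: Myh4 (-2.02), Myh1 (-3.21), Myh2 (-3.75), Myh3 (-3.94) and Myh8 (-7.32, interval -7.57 to -7.09). Relative to pan-muscle genes Myh4 on day 14 changed sign (0.55) while Myh8 stayed at -4.75. Myh7b was higher on 3 of 3 days (1.18, 1.57 and 0.74) and Myh8 lower on 3 of 3, though by -0.04 on day 7, and relative to pan-muscle genes it was at 0.36 on day 3. The values nearest the 4-fold limit were Myh4 in Alg day 14 (-2.02), just past it, and Myh4 in s-GAG day 3 (-1.96), just short of it.

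**Figure D3:**
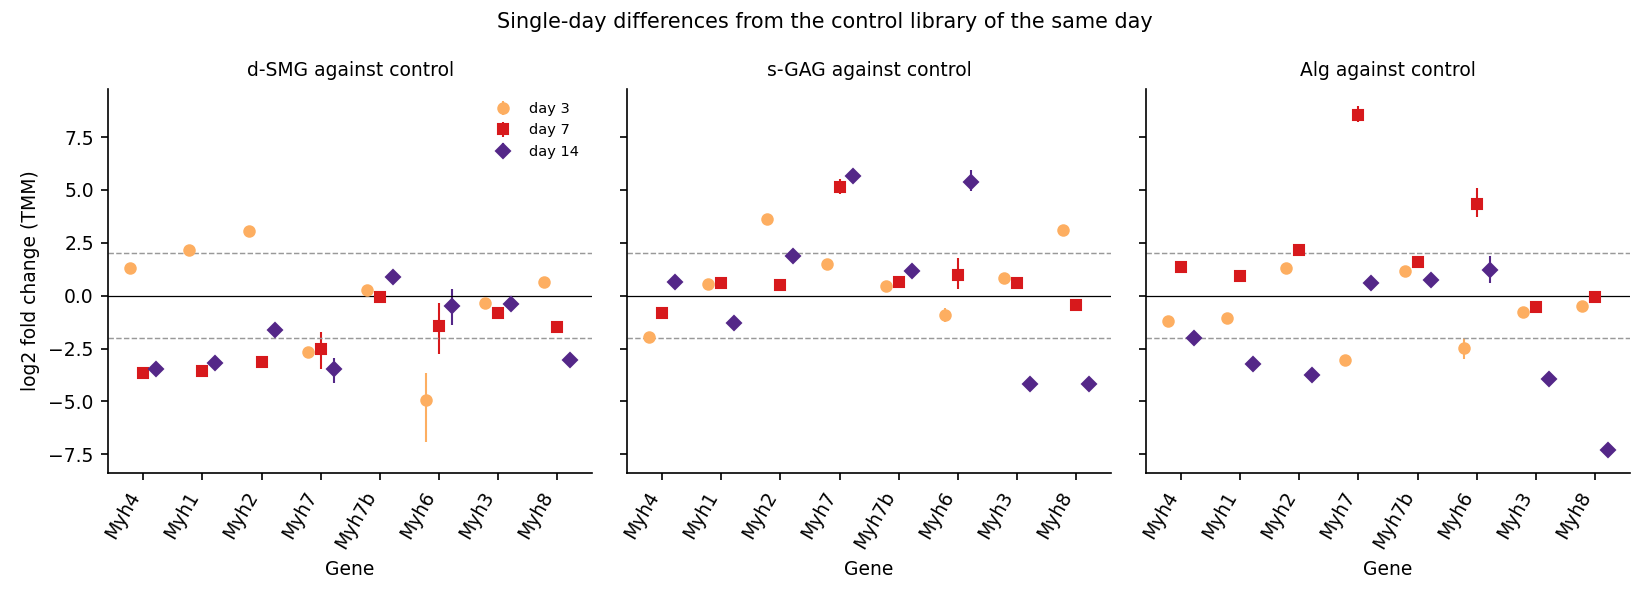
TMM log2 fold change of each member against the control library of the same day, 1 panel per treatment and 1 symbol per day, with bars for the 95% counting interval and dashed lines at 4-fold. Myh7 lies at 8.56 in Alg day 7 and Myh8 at -7.32 in Alg day 14, and 19 of the 72 values change sign when scaled to pan-muscle genes.

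Other muscle genes were read from lists. Over 3 days, 0 genes of any list were called for any treatment. The 12 fast fibre partners (light chains, troponins and calcium handling of fast fibres) had median log2 fold changes of -0.12 in d-SMG, 0.51 in s-GAG and 0.09 in Alg, and 11 tested slow fibre partners -0.52, 0.83 and 0.18, against -0.03, 0.0021 and -0.03 over all genes. On single days all 12 fast partners were lower past 4-fold in d-SMG day 7 (median -3.26), 10 of 12 in d-SMG day 14 (-2.47) and 9 of 12 in Alg day 14 (-2.34), against 3.95%, 8.54% and 7.35% of all genes in either direction. Of 22 pan-muscle genes, 18, 19 and 16 were lower past 4-fold in those libraries. In d-SMG day 3 the direction was the opposite, with 4 of 12 fast partners (median 1.90) and 10 of 22 pan-muscle genes (median 1.74) higher past 4-fold and 0 lower, against 9.2% of all genes. In s-GAG day 14, 4 of 12 fast partners were higher past 4-fold, and of the pan-muscle genes 4 were higher and 6 lower, against 25.1% of all genes. Of the slow partners, 6 of 11 were higher past 4-fold in Alg day 7 (median 2.38) and 5 of 11 in s-GAG day 14 (1.09). The shares of all genes past 4-fold in either direction there were 5.58% and 25.1%.

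Of the 11 slow partners, 4 had their highest level in s-GAG day 14, 1 in Alg day 7 and 6 in other libraries. Myl3, a slow light chain, was at 83.7 FPKM in s-GAG day 14 and 31.0 in Alg day 7, and at 0 to 11.4 in the other libraries. Myl2, the slow regulatory light chain, was at 51.7 and 43.9 FPKM in the same libraries and at 0 to 16.3 elsewhere. Tnnt1, slow troponin T, was at 624 and 406 FPKM there, and at 22.2 to 238 elsewhere. Others peaked elsewhere: Mybpc1 at 333 FPKM, Casq2 at 97.5 and Ankrd2 at 163 in d-SMG day 3, and Tnni1 at 53.6 in control day 3. Casq2 (4.98 FPKM) and Atp2a2 (6.56 FPKM), the slow calcium pump, were at their lowest in s-GAG day 14. Atp2a2 was at 15.9 to 30.1 FPKM in the other libraries. It was at 26.6 FPKM in d-SMG day 7, where the summed FPKM of pan-muscle genes was lowest. Over 3 days Tnnt1 had fitted log2 fold changes of -1.62, 2.15 and 0.99 and Myl3 -2.78, 4.39 and 3.09 in d-SMG, s-GAG and Alg, none called.

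Of 15 developmental and regeneration partners, the median log2 fold change over 3 days was -0.94 in d-SMG, -1.44 in s-GAG and -1.22 in Alg. Of these partners 0 were called and 1, 3 and 3 had an unadjusted edgeR p under 0.05, against 218, 1492 and 502 of all 16110 genes. Actc1, the cardiac actin of embryonic and regenerating fibres, was at -1.62 ± 0.63, -2.45 ± 0.67 and -2.28 ± 0.64 (SE), with edgeR adjusted p of 1, 0.417 and 1. Myog, which drives myoblast differentiation, was at 153 FPKM in control day 3, 12.3 in control day 7 and 78.9 in control day 14. In s-GAG day 3, where Myh8 was high, Myog was at 10.97 FPKM and 9 of 15 partners were lower past 4-fold, against 6.9% of all genes in either direction. In Alg day 14, where Myh3 and Myh8 were low, 12 of 15 were lower past 4-fold, against 7.35% of all genes in either direction.
Of 9 folding and assembly genes, Unc45b, the myosin chaperone, had fold changes of -1.12, -0.98 and -0.55, and the list medians were -0.58, -0.25 and -0.21. Among 14 fibre type regulators, Rcan1, a calcineurin target, was at 0.90, 0.74 and 0.85 and Mef2c, a muscle transcription factor, at -1.79, -2.32 and -1.46, none called.

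The genes whose profile was most like each member, by Pearson r of log2 CPM (reads scaled to library depth) over the 12 libraries, differed by isoform. The libraries differed in muscle content (summed FPKM of pan-muscle genes 726.8 in d-SMG day 7 and 22460 in d-SMG day 3). Muscle genes can follow that difference together, so r describes likeness only. For Myh4 they were Vgll2 (0.976), Atp2a1 (0.976), the calcium pump of fast fibres, and Ampd1 (0.972). For Myh1 they were Mybpc1 (0.965), Actn2 (0.963) and Trdn (0.962), and for Myh2 Sh3bgr (0.900), Hhatl (0.886) and Cox8b (0.885).
For Myh7 they were Myl3 (0.936), Tnnt1 (0.922) and Cpt2 (0.893), and for Myh6 Myl3 (0.924), Tnnt1 (0.906) and LOC100363869 (0.882). For Myh8 the closest was Myh15, another sarcomeric heavy chain (0.968), then Nefm (0.875) and LOC102552294 (0.839). For Myh3 they were Tmem108 (0.921, at 0 to 0.11 FPKM), Klk1 (0.901) and Cert1 (0.841), and for Myh7b Acsm5 (0.897, at 0.02 to 0.36 FPKM), Rhot2 (0.859) and LOC102547300 (0.845). With the mean of 22 pan-muscle genes, r was 0.951 for Myh4, 0.955 for Myh1, 0.736 for Myh2 and 0.534 for Myh7. It was 0.158 for Myh7b, 0.171 for Myh6, 0.307 for Myh3 and 0.337 for Myh8. The 2B and 2X chains had the highest values of the 8.

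**Figure D4:**
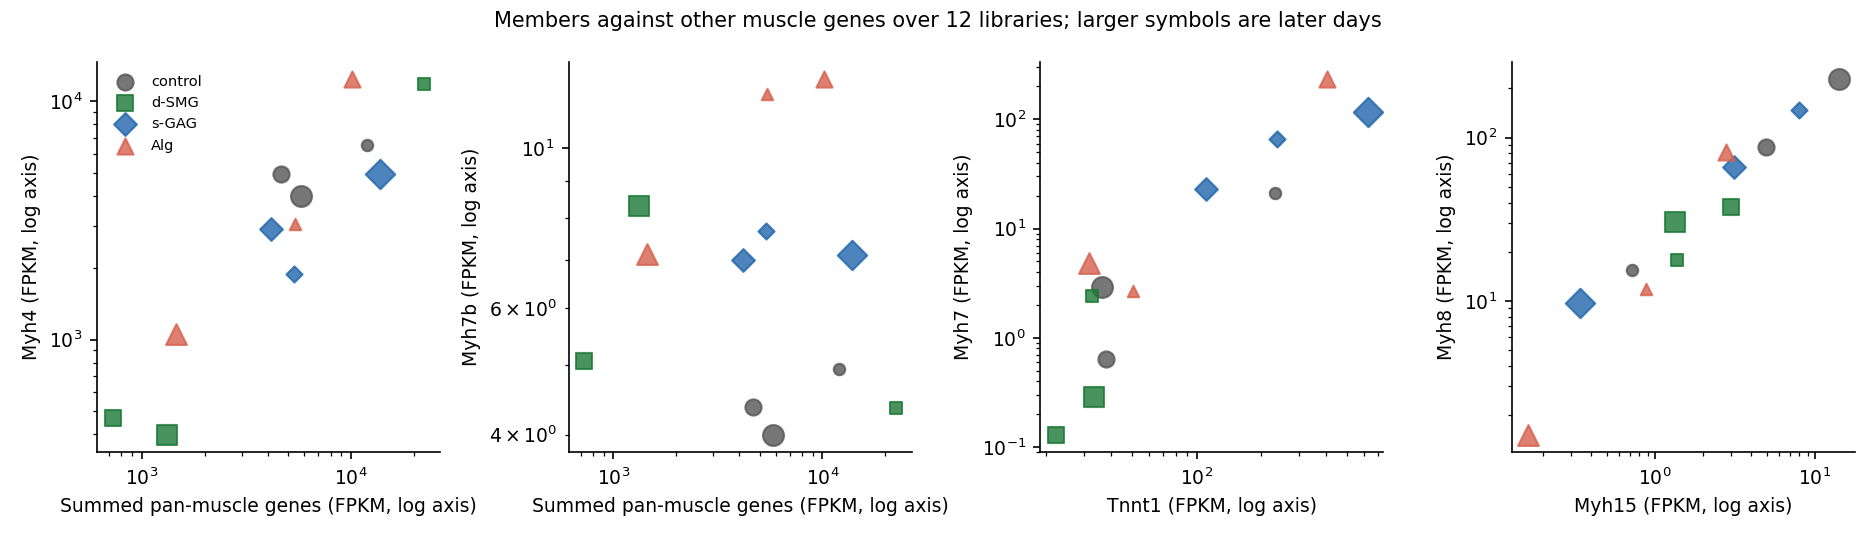
FPKM of Myh4 and Myh7b against the summed FPKM of 22 pan-muscle genes, of Myh7 against Tnnt1 and of Myh8 against Myh15, on log axes, 1 library per point, larger symbols for later days. Myh4 and the pan-muscle sum are lowest together in d-SMG days 7 and 14, and Myh7b shows no such trend. With the mean log2 CPM of the 22 genes, not the summed FPKM plotted, r was 0.158 for Myh7b against 0.951 for Myh4.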

How the data were processed

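The authors prepared stranded, rRNA-depleted libraries, sequenced them as paired ends on a NovaSeq, and deposited read counts per gene and FPKM per gene. The submitters' processing notes name bcl2fastq, FastQC, TopHat2 and edgeR. The counter, annotation and genome build are not given in the sources used here. Of the value columns, 1 in each file matched no sample label and was not used.

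Counts were fitted with edgeR 4.0.16 in R 4.3.3 (TMM, filterByExpr, quasi-likelihood test, terms for day and treatment, all 12 libraries, Benjamini-Hochberg adjustment at 0.05), with 16110 genes tested. The days stood in for replicates in the treatment comparisons, and the 4 treatments in the day comparisons. The p-values measure the spread left after both terms, which is treatment differences varying between days plus noise of single libraries. DESeq2 1.42.0 was an alternative. The fit was tested on simulated data. Their spread was set lower than in these data and they held no day effect. That run therefore does not show how often changes in these data would be found. Single days used TMM log2 CPM with a prior count of 0.5 and at least 10 reads in both libraries together. Composition used the deposited FPKM. Figures were drawn with matplotlib 3.10.9.

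Named were all 8 members, the 3 genes most like each by Pearson r, and in each muscle list the 2 highest and 2 lowest in d-SMG, of which only some are printed. Myog, Myl2, Krt14 and the single cardiac markers were chosen after their values were seen. Lists held 178 genes, of which 171 were found. The members and lists were chosen with earlier results of these data known. The alternatives tried were other scaling, tools, filters, terms, FPKM pseudocounts of 1 and 0.1, a 2-fold limit, and leaving out libraries.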

Additional observations from a re-analysis of the deposited data

Results flagged for a closer look

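Of the member and treatment pairs, those named here lay past 4-fold in opposite directions on 2 days. Each day has 1 library per treatment, and the difference between days was not tested. The share of all genes that did the same is not given here. In d-SMG, Myh1 was at a log2 fold change of 2.18 on day 3 and -3.58 on day 7, and Myh2 at 3.06 and -3.15. In s-GAG, Myh8 was at 3.10 on day 3 and -4.20 on day 14. In Alg, Myh2 was at 2.15 on day 7 and -3.75 on day 14, Myh7 at 8.56 on day 7 and -3.06 on day 3, and Myh6 at 4.34 on day 7 and -2.47 on day 3. Relative to pan-muscle genes, Myh1 in d-SMG was at 0.53 on day 3 and -0.43 on day 7, and Myh2 there at 1.4 and 0.0053. On that scale Myh2 in Alg was at 1.1 on day 7 and -1.18 on day 14, and Myh6 in Alg at 3.29 on day 7 and -1.62 on day 3. Myh8 in s-GAG (4.13 on day 3 and -3.3 on day 14) and Myh7 in Alg (7.51 on day 7 and -2.21 on day 3) stayed past 4-fold in opposite directions.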

How the results depend on the processing

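In all 7 comparisons over days or treatments, 0 members were called under every alternative run, DESeq2 and leaving out each library included. The fitted member values were uncalled, and the sign of many turned. The cause was not tested. Without the term for the other factor, the log2 values that turned were Myh4 0.0900 and Myh1 0.41 in d-SMG, Myh1 0.0679 and Myh3 0.0901 in s-GAG, Myh7 1.64 in day 7 against day 3, Myh7 0.92 and Myh8 0.52 in day 14 against day 3 and Myh7 -0.72 and Myh7b -0.0635 in day 14 against day 7. The log2 values that turned without all libraries of day 7 were Myh4 0.0458 in d-SMG, Myh4 0.12 in s-GAG and Myh4 -1.64, Myh2 -1.53, Myh7 -1.22 and Myh6 -1.62 in Alg. The log2 values that turned without all libraries of day 14 were Myh4 0.46 and Myh1 1.03 in d-SMG, Myh1 0.58, Myh6 -0.48, Myh3 0.71 and Myh8 1.6 in s-GAG and Myh1 0.38 in Alg. Scaled to pan-muscle genes, the log2 values that turned were Myh1 0.0583, Myh3 2.23 and Myh8 0.66 in d-SMG, Myh4 0.10, Myh1 0.70, Myh3 0.58 and Myh8 0.62 in s-GAG, Myh4 0.46, Myh1 0.20, Myh2 0.67 and Myh7b 0.57 in day 7 against day 3, Myh4 0.48, Myh1 0.18, Myh2 0.46, Myh7 0.25, Myh7b 1.25 and Myh8 0.91 in day 14 against day 3 and Myh4 0.0260 in day 14 against day 7. Scaled to library size, the log2 values that turned were Myh2 -0.25 in d-SMG, Myh4 -0.0116 in Alg, Myh8 0.0434 in day 14 against day 3 and Myh7b -0.0155 in day 14 against day 7. With only the groups compared, the log2 values that turned were Myh2 -0.95 in d-SMG, Myh1 0.0159 in s-GAG, Myh4 -0.68 in Alg and Myh6 -0.21 in day 7 against day 3. The log2 values that turned without all libraries of day 3 were Myh2 -2.18 in d-SMG and Myh4 0.20 in s-GAG. Without d-SMG day 3 and s-GAG day 14, the log2 values that turned were Myh2 -1.83 in d-SMG, Myh1 0.35, Myh6 -0.27, Myh3 0.41 and Myh8 0.94 in s-GAG, Myh4 -0.37 in Alg, Myh4 0.83, Myh1 0.64, Myh2 0.77 and Myh6 -0.63 in day 7 against day 3, Myh1 0.23, Myh2 0.16, Myh6 -1.60 and Myh8 1.51 in day 14 against day 3 and Myh7 -1.72, Myh7b -0.17 and Myh6 -0.98 in day 14 against day 7. Without all libraries of d-SMG, the log2 values that turned were Myh4 1.03, Myh1 0.86, Myh2 1.2, Myh7 0.70 and Myh7b 0.0561 in day 7 against day 3, Myh4 0.22 in day 14 against day 3 and Myh7 -1.40 and Myh7b -0.23 in day 14 against day 7. Without all libraries of s-GAG, the log2 values that turned were Myh2 0.26 in day 7 against day 3, Myh6 -0.61 and Myh8 1.22 in day 14 against day 3 and Myh7 -2.15, Myh7b -0.11 and Myh6 -0.94 in day 14 against day 7. Without all libraries of control, the log2 values that turned were Myh7 0.59 in day 7 against day 3, Myh7b 0.0644 in day 14 against day 3 and Myh7 -1.60 in day 14 against day 7. Without all libraries of Alg, the log2 values that turned were Myh6 -1.70 in day 7 against day 3, Myh7b 0.17 and Myh8 0.23 in day 14 against day 3 and Myh4 0.41, Myh2 0.59 and Myh8 0.23 in day 14 against day 7. Leaving out 1 library at a time, the ranges in d-SMG were Myh4 -4.06 to 0.54, Myh1 -3.19 to 0.62, Myh2 -1.85 to 1.17, Myh3 -1.87 to 0.70 and Myh8 -2.98 to 0.73. Leaving out 1 library at a time, the ranges in s-GAG were Myh4 -2.20 to 0.68, Myh1 -0.96 to 1.16, Myh6 -0.22 to 4.41, Myh3 -1.10 to 0.46 and Myh8 -2.30 to 1.48. Leaving out 1 library at a time, the ranges in Alg were Myh4 -2.25 to 0.85, Myh1 -2.69 to 0.26, Myh2 -2.48 to 1.87, Myh7 -0.92 to 6.75 and Myh6 -1.51 to 3.42. Leaving out 1 library at a time, the ranges in day 7 against day 3 were Myh4 -2.28 to 0.91, Myh1 -2.01 to 0.53, Myh2 -2.45 to 0.87, Myh7 -3.93 to 0.0846, Myh7b -0.34 to 0.12, Myh6 -1.75 to 2.15, Myh3 -0.78 to 0.24 and Myh8 -0.52 to 2.24. Leaving out 1 library at a time, the ranges in day 14 against day 3 were Myh4 -2.74 to 0.33, Myh2 -2.06 to 0.24, Myh7b -0.25 to 0.23, Myh6 -0.90 to 2.77 and Myh8 -1.63 to 0.95. Leaving out 1 library at a time, the ranges in day 14 against day 7 were Myh4 -2.22 to 0.48, Myh2 -2.14 to 0.40, Myh7 -1.97 to 2.64, Myh7b -0.16 to 0.32 and Myh6 -0.70 to 2.86. On single days, scaling to pan-muscle genes gave 7 members of 24 past 4-fold in d-SMG in place of 12 (5 higher and 2 lower, against 2 and 10), with 71.3% of all genes past it. Among values past 4-fold as reported, that scaling turned Myh2 (0.0053) and Myh7 (0.58) on day 7 and Myh1 (0.0683) and Myh8 (0.18) on day 14 in d-SMG, and Myh4 (0.55) on day 14 in Alg. It also turned values short of 4-fold. It gave 8 higher and 2 lower in s-GAG, against 5 and 2, with 18.4% of all genes, and 7 higher and 2 lower in Alg, against 3 and 7, with 34.4%. A 2-fold limit gave 16 in d-SMG in place of 12 (21.6% of all genes), 12 in s-GAG in place of 7 (36% of all genes) and 17 in Alg in place of 10 (21.5% of all genes). Without d-SMG day 3 and s-GAG day 14, a choice made after seeing the data, 3 were left in s-GAG, as the calls of day 14 went with their library. Scaled to library size, the median of all genes moved by -0.48 to 0.312. Counts of all genes called, 0 as reported, became 288 in s-GAG, 88 in Alg, 9 in d-SMG, 105 for any treatment, 39 for day 14 against day 3 and 7 for day 14 against day 7 with DESeq2. Scaled to pan-muscle genes they were 50 in s-GAG, 40 in Alg, 1 in d-SMG and 4 for any treatment. With only the groups compared they were 12 in s-GAG and 9 in Alg, and for s-GAG 1 without the filter, 177 without d-SMG day 3 and s-GAG day 14, 66 without d-SMG day 3 and 1 without Alg day 7. The fit as reported holds day as a term, which sets libraries of the same day against each other, and the values without that term are given above. Depth limits Myh6 (4 to 1112 reads) and low Myh7 (15 reads in d-SMG day 7).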
